A study of Mus musculus with 24 samples.

Results

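The genes described here are 10 core components of the mammalian circadian clock, namely Arntl (also called Bmal1), Clock, Per1, Per2, Per3, Cry1, Cry2, Nr1d1, Nr1d2 and Dbp. They were picked out by Entrez identifier, and all 10 were found among the 36528 gene rows of every library. They were proposed with differences between diphtheria toxin (DT) and saline in these data already known. Their DT differences are therefore given as values with standard errors and no p-value, and counts of calls among them support nothing. RNA was sequenced from cells sorted from tumours derived from mouse small intestine, all of the genotype recorded as AKVPL, which the labels do not spell out. The groups were DT at 24 h, saline at 24 h, DT at 48 h, saline at 48 h, DT at 96 h and saline at 96 h, with 4 libraries each and 24 in all. The submitters' design names DT as the agent meant to deplete cells with Lgr5, a Wnt-pathway receptor found on stem cells of the intestine. The sort is recorded as bulk and EpCAM, an adhesion protein of epithelia, stands in the sample names. The promoter and allele behind the toxin sensitivity, the age of the mice and the hour of day at which tumours were taken are not stated in the labels. The labels do not say that libraries of a group came from separate animals, and p-values then reflect variation among the deposited samples, part or all of which may be technical.

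The circadian clock is a loop of transcription and translation that runs in most cells with a period of about a day. The activators Arntl and Clock pair on E-boxes in DNA and drive the Per and Cry genes, whose proteins return to block the pair. The same E-boxes drive Nr1d1 and Nr1d2, the REV-ERB nuclear receptors, which bind heme and repress Arntl, and Dbp, a transcription factor that acts on D-boxes in clock output genes. In mouse liver, Nr1d1, Dbp and Per3 peak in the same part of the day and Arntl and Clock transcripts in the opposite part. A shift of clock time thus tends to move these arms in opposite directions. Genes of an arm do not all peak at the same hour, so they need not move alike. The intestinal epithelium has such a clock, and feeding time and glucocorticoids are known to set it.

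Total counts ran from 10.9 to 27.7 in units of 1000000 counts per library, and 17468 genes had enough counts to be tested. Lgr5 lay between 77.0 and 171 CPM (counts per 1000000 counts, after scaling) in the 12 DT libraries and between 152 and 217 CPM in the 12 saline libraries. Its difference was -1.30 ± 0.12 on the log2 scale (SE) at 24 h, -0.60 ± 0.12 at 48 h and -0.43 ± 0.12 at 96 h (edgeR quasi-likelihood test, adjusted p = 4.44e-08, 0.00272 and 0.0447). Replicate 3 of DT at 48 h stood apart, at -2.50 on the first principal component where the other 3 DT libraries at 48 h lay at 15.71 to 25.56. It also had the highest Lgr5 level of the DT libraries, 171 CPM. Replicate 1 of DT at 48 h was the lowest of its group in 7 of the 10 members, Clock, Per1, Per2, Per3, Cry1, Cry2 and Nr1d2, and values without these libraries are given where they matter. The summed CPM of the epithelial markers Epcam, Krt8, Krt18, Cdh1 and Vil1 was 5708 to 7349 in DT libraries and 5779 to 6524 in saline libraries, and none of the 5 was at 0 in a whole group. At 24 h Epcam and Cdh1 fell, with log2 differences of -0.26 ± 0.06 and -0.18 ± 0.07 (edgeR quasi-likelihood test, adjusted p = 0.00141 and 0.0493), while Krt18 rose by 0.37 ± 0.08 (adjusted p = 0.000758). Their part in the clock gene differences was not tested. In these bulk samples, fewer cells of a type and less RNA per cell cannot be told apart.

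Levels were compared between genes per length, as the authors' normalized RPKM. Over the 12 saline libraries Nr1d1 stood highest, at 18.2 ± 2.36 (SD, n = 12), followed by Nr1d2 at 11.1 ± 0.696 and Cry2 at 10.6 ± 0.972. Per1 came next at 8.64 ± 1.76, then Clock at 8.53 ± 0.36, Cry1 at 7.03 ± 0.489 and Arntl at 6.10 ± 0.623. Per3 at 5.28 ± 0.46, Dbp at 4.75 ± 0.669 and Per2 at 3.58 ± 0.376 were lowest. Nr1d1 was above Nr1d2 in every saline library, while all other neighbours in this order overlapped in range. In DT libraries at 24 h Nr1d1 averaged 86.1 on the same scale, against 16.5 in saline libraries at 24 h.

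Promoter windows are shown because the members differ in the clock elements that lie near their starts, and such elements are part of the loop described above. RefSeq windows of 300 bases, from 250 before to 50 after a transcript start, were matched on GRCm38.p6 for 9 of the 10 members, all but Per2. They numbered 13, since some members have several starts, and those of Arntl and Per1 lie within the annotated span of the gene. They were searched on both strands for the E-box CACGTG, its variant CACGTT, the D-box TTATGTAA or TTACGTAA, the REV-ERB and ROR core TAGGTCA and the cAMP response element TGACGTCA. CACGTG and CACGTT share CACGT, and ACGT also stands in TTACGTAA and TGACGTCA, so the motifs overlap in letters. The E-box was found in 7.15% of all 32851 windows and in those of Per1 and Cry1 among the members. The variant was found in 4.68% of windows and in those of Cry1, Cry2 and Nr1d1. The D-box was found in 1.06% of windows and lay at 2 places in that of Per3. The REV-ERB and ROR core was found in 2.61% of windows and in a window of Arntl, 30 bases after that transcript start. The cAMP response element was found in 1.79% of windows and in none of the members' windows. In the stretches below, read 5′ to 3′ on the gene's own strand of GRCm38.p6, capitals mark the motifs, and AACGTG is the variant CACGTT read on the other strand. The stretch of Dbp holds none of these motifs and is shown beside Nr1d1 because the DT differences of these genes are compared. It lies almost wholly within the annotated span of Dbp, which starts at 45705100.
Nr1d1, chr11:98775378-98775527, minus strand: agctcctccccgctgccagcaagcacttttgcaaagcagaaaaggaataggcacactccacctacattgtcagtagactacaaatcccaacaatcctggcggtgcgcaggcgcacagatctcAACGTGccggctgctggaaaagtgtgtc
Dbp, chr7:45705097-45705246, plus strand: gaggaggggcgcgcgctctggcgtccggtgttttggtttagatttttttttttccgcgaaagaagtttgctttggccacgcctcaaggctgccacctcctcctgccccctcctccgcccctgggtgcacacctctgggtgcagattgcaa
Per1, chr11:69098749-69098848, plus strand: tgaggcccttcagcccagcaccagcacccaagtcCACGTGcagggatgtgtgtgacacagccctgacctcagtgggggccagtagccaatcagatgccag
Cry1, chr10:85185055-85185164, minus strand: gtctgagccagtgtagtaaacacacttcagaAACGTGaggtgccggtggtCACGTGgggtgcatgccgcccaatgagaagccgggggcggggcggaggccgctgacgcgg
Per3, chr4:151044796-151044895, minus strand: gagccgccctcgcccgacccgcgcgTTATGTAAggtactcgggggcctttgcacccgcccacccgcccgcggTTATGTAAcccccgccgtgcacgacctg
Arntl, chr7:113207530-113207558, plus strand: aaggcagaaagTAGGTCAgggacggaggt
The stretches of Nr1d1, Dbp and Cry1 end at the base before a transcript start, those of Per1 and Per3 lie further upstream of one, and that of Arntl lies just after one. A match describes these letters and is no evidence of binding.

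Nr1d1, the REV-ERB alpha repressor of Arntl, differed most of the 10 genes between DT and saline at 24 and 48 h, while at 96 h Cry2 did. At 24 h it had 261, 249, 232 and 275 CPM in the DT libraries, against 50.7, 48.1, 50.5 and 45.7 CPM in the saline libraries. At 48 h it had 142, 127, 163 and 189 CPM in DT libraries, against 59.6, 62.4, 65.6 and 61.0 CPM in saline libraries. At 96 h it had 60.9, 65.8, 77.0 and 52.0 CPM in DT libraries, against 42.9, 57.0, 56.1 and 48.3 CPM in saline libraries. Every DT library was above every saline library at 24 and 48 h, with a wide gap, and the ranges overlapped at 96 h. The differences were 2.38 ± 0.12 on the log2 scale (SE) at 24 h, 1.33 ± 0.11 at 48 h and 0.33 ± 0.11 at 96 h. The difference at 24 h kept to 2.34 to 2.43 when the scaling, filter, test, samples in the fit or a single library was changed. The DT library at 48 h that stood apart, replicate 3, had 163 CPM of Nr1d1, within the range of the other 3.

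**Figure D1:**
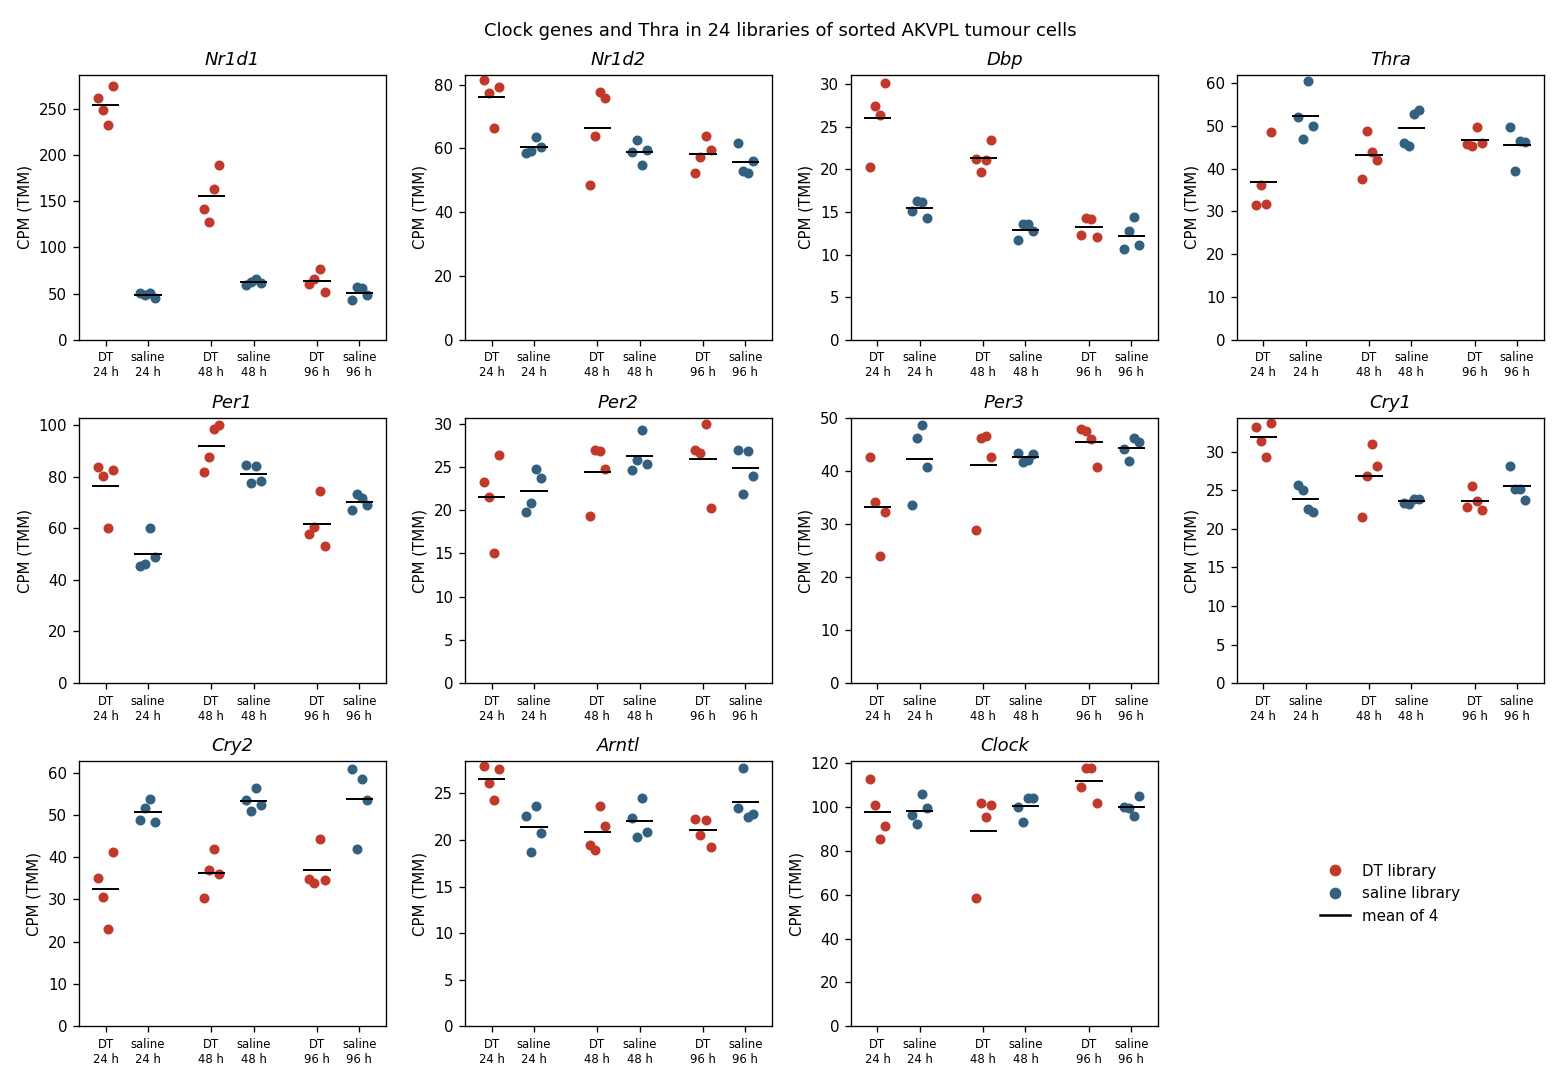
CPM of the 10 clock genes and Thra in each of the 24 libraries, 1 panel a gene, with DT left of saline at 24, 48 and 96 h; points are libraries and short lines are means of 4. Nr1d1 lies at 232 to 275 CPM in DT libraries at 24 h and at 45.7 to 50.7 CPM in saline libraries at 24 h, while Per2 and Clock overlap between DT and saline at every time.

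Nr1d1 lies on the minus strand of chromosome 11 at 98767932 to 98775377 on GRCm38, and its end overlaps the end of Thra, a thyroid hormone receptor gene on the plus strand at 98740776 to 98769006. The shared stretch is 1075 bases long, and the labels do not say whether counting used strand, so reads of the shared stretch cannot be assigned to a gene. Thra had 31.4, 36.2, 31.7 and 48.5 CPM in DT libraries at 24 h, against 52.0, 46.9, 60.5 and 49.9 CPM in saline libraries at 24 h. It fell by 0.50 ± 0.11 on the log2 scale (edgeR quasi-likelihood test, adjusted p = 0.00118), although the ranges overlapped. Its differences were -0.20 at 48 h (adjusted p = 0.27) and 0.04 at 96 h (adjusted p = 0.942). At 24 h Thra was thus lower where Nr1d1 was higher, while at 48 h Thra overlapped between DT and saline libraries. The ratio of Nr1d1 to Thra CPM was 7.05 ± 1.09 in DT libraries and 0.938 ± 0.0824 in saline libraries at 24 h (SD, n = 4 each). It was 3.65 ± 0.786 in DT and 1.26 ± 0.101 in saline libraries at 48 h, and 1.36 ± 0.178 in DT and 1.14 ± 0.246 in saline libraries at 96 h. Within groups Nr1d1 and Thra showed no detectable relation (Pearson r = 0.06 over 24 libraries after subtracting group means, permutation p = 0.791).

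**Figure D2:**
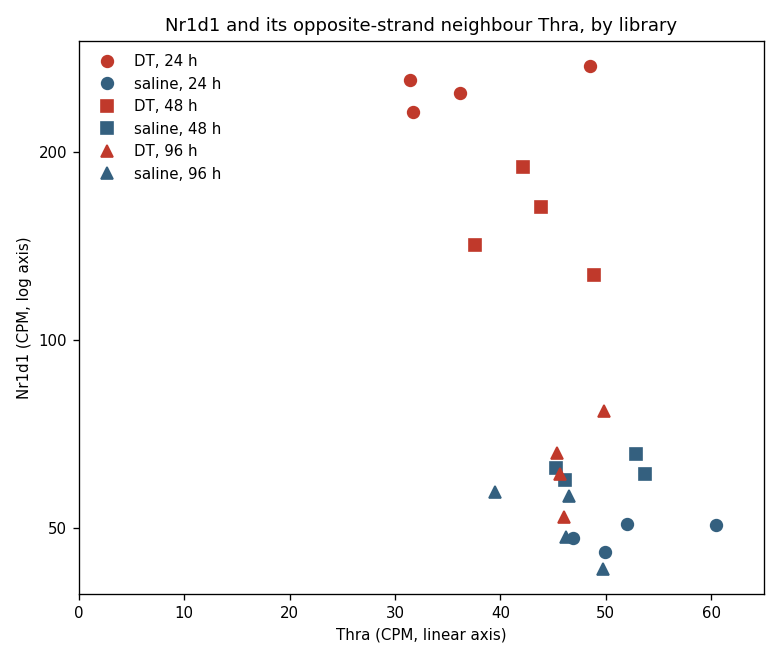
CPM of Nr1d1 (vertical, log axis) against CPM of Thra, which overlaps it on the other strand (horizontal, linear axis); each point is a library, with colour for DT or saline and shape for time. At 24 h Nr1d1 is higher in all 4 DT libraries, whereas Thra is 31.4 to 48.5 CPM in DT libraries and 46.9 to 60.5 CPM in saline libraries.

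Nr1d2, the REV-ERB beta paralogue with much the same binding sites, differed far less than Nr1d1. At 24 h it had 81.4, 77.4, 66.4 and 79.1 CPM in DT libraries, against 58.6, 59.2, 63.4 and 60.5 CPM in saline libraries. The groups did not overlap, and the difference was 0.33 ± 0.10 on the log2 scale. At 48 h the DT libraries ran from 48.5 to 77.5 CPM around the saline range of 54.8 to 62.6 CPM, with a log2 difference of 0.18 ± 0.10. Without replicate 1 of DT at 48 h the difference was 0.30. At 96 h the ranges of 52.2 to 63.9 CPM in DT and 52.2 to 61.6 CPM in saline libraries lay on each other, with a log2 difference of 0.06 ± 0.10.

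Dbp, the D-box activator that in liver follows Arntl and Clock closely, was the other member whose DT libraries all lay above the saline libraries at both 24 and 48 h. At 24 h it had 20.3, 27.4, 26.4 and 30.1 CPM in DT libraries, against 15.1, 16.3, 16.2 and 14.3 CPM in saline libraries. At 48 h it had 21.2, 19.7, 21.1 and 23.4 CPM in DT libraries, against 11.7, 13.6, 13.6 and 12.8 CPM in saline libraries. The log2 differences were 0.76 ± 0.11 at 24 h and 0.73 ± 0.11 at 48 h. That of Dbp was thus about as large at 48 h as at 24 h, whereas that of Nr1d1 was smaller at 48 h. Mean Dbp was lower at 48 h than at 24 h in both treatments, 21.4 against 26.1 CPM in DT and 12.9 against 15.5 CPM in saline libraries. Mean Nr1d1 was 156 against 254 CPM in DT and 62.2 against 48.8 CPM in saline libraries. At 96 h Dbp ran from 12 to 14.3 CPM in DT and from 10.6 to 14.4 CPM in saline libraries, and the log2 difference was 0.12 ± 0.11.

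The Per genes, whose proteins carry the repressor complex into the nucleus, did not move as a family. Per1, which is also induced directly by light, stress and glucocorticoid signals, had 83.7, 80.1, 59.9 and 82.4 CPM in DT libraries at 24 h, against 45.4, 46.3, 60.2 and 48.8 CPM in saline libraries. In that comparison 3 of the 4 DT libraries were above all saline libraries and replicate 3 was not, and the log2 difference was 0.61 ± 0.11. It was 0.18 ± 0.11 at 48 h and -0.20 ± 0.11 at 96 h, with overlap at both times. Per2, the paralogue whose loss shortens or abolishes rhythm in mice, lay between 15.0 and 26.4 CPM in DT libraries at 24 h and between 19.8 and 24.7 CPM in saline libraries. Its log2 differences were -0.05, -0.10 and 0.05 at 24, 48 and 96 h, each ± 0.14. Per3, the paralogue with the least effect on rhythm when lost in mice, had 42.7, 34.1, 24.0 and 32.2 CPM in DT libraries at 24 h, against 33.6, 46.3, 48.8 and 40.8 CPM in saline libraries. The groups overlapped and the log2 difference was -0.36 ± 0.14, and without replicate 3 of DT it was -0.22. At 48 and 96 h the Per3 differences were -0.06 and 0.04 on the log2 scale, each ± 0.14.

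The Cry genes, whose proteins bind the Arntl and Clock pair and hold it inactive, differed in opposite directions at 24 h. Cry1 had 33.3, 31.4, 29.4 and 33.8 CPM in DT libraries at 24 h, against 25.7, 25.0, 22.6 and 22.2 CPM in saline libraries, and the groups did not overlap. The Cry1 difference was 0.42 ± 0.09 on the log2 scale at 24 h, 0.19 ± 0.08 at 48 h and -0.12 ± 0.09 at 96 h. At 48 h the DT range of Cry1, 21.6 to 31.0 CPM, held the whole saline range of 23.2 to 23.9 CPM. The Cry1 ranges overlapped at 96 h as well. Cry2 was lower at all 3 times. It had 35.0, 30.5, 22.9 and 41.2 CPM in DT libraries at 24 h, against 48.7, 51.6, 53.8 and 48.2 CPM in saline libraries. At 48 h it had 30.4, 36.9, 41.9 and 36.0 CPM in DT libraries, against 53.5, 51.0, 56.4 and 52.4 CPM in saline libraries. At 96 h it had 34.9, 33.9, 44.3 and 34.6 CPM in DT libraries, against 60.8, 41.9, 58.6 and 53.6 CPM in saline libraries. The groups were apart at 24 and 48 h, and at 96 h they overlapped through DT replicate 3 and saline replicate 2. The Cry2 differences were -0.65, -0.56 and -0.55 on the log2 scale at 24, 48 and 96 h, each ± 0.14, and no other member was called at 96 h.

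Of the activators, Arntl had 28.0, 26.1, 24.3 and 27.6 CPM in DT libraries at 24 h, against 22.6, 18.7, 23.6 and 20.7 CPM in saline libraries. The groups were apart by a small gap, and the difference was 0.30 ± 0.09 on the log2 scale. At 48 h Arntl overlapped, with a log2 difference of -0.07 ± 0.09. At 96 h it had 22.3, 20.5, 22.2 and 19.2 CPM in DT libraries, against 23.4, 27.7, 22.5 and 22.8 CPM in saline libraries, with a log2 difference of -0.19 ± 0.09. These groups were apart by a narrow gap, and the difference was not called. Clock, the partner of Arntl and a histone acetyltransferase, had log2 differences of -0.01, -0.17 and 0.16 at 24, 48 and 96 h, each ± 0.12. Its lowest value was 58.7 CPM in replicate 1 of DT at 48 h, against 95.6 to 102 CPM in the other 3 DT libraries and 93.2 to 104 CPM in saline libraries of that time. Without that library the difference at 48 h was 0.03.

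**Figure D3:**
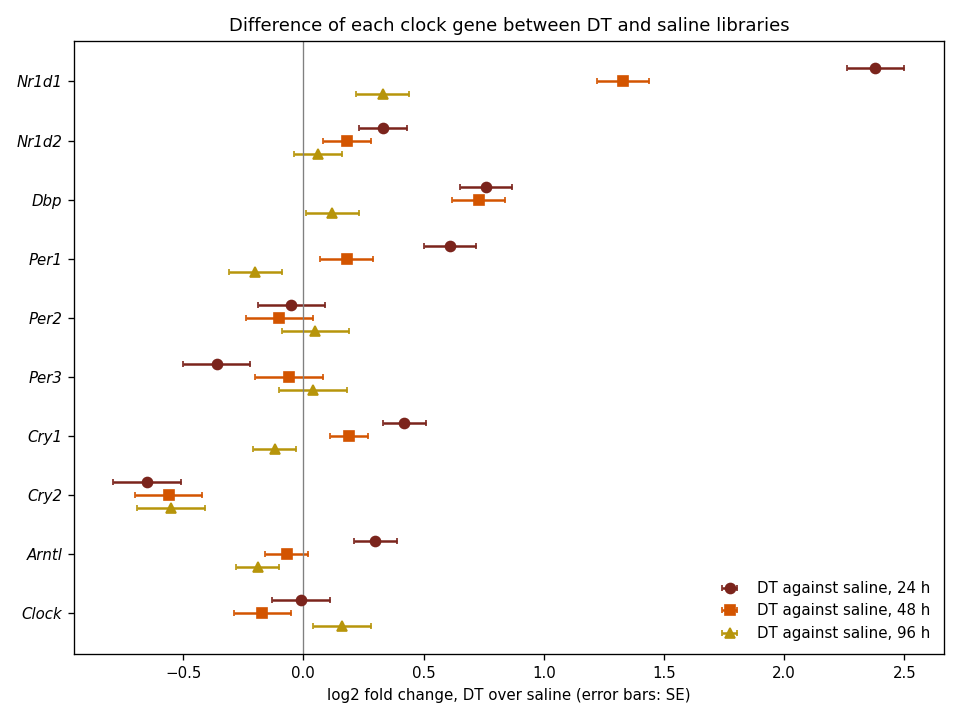
Log2 fold change of DT over saline for the 10 clock genes at 24, 48 and 96 h (shape and colour), with bars of 1 SE from the fit across all genes. Nr1d1 stands at 2.38, 1.33 and 0.33, Dbp at 0.76, 0.73 and 0.12, and Cry2 at -0.65, -0.56 and -0.55.

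A gene was called when its adjusted p over all tested genes was under 0.05. At 24 h 8 of the 10 members were called, 6 higher and 2 lower, where 38.7% of all genes were called, 19.9% higher and 18.9% lower. The 6 were Nr1d1, Dbp, Per1, Cry1, Nr1d2 and Arntl, and the 2 were Cry2 and Per3. At 48 h 3 were called, Nr1d1 and Dbp higher and Cry2 lower, where 11.3% of all genes were called, 4.83% higher and 6.5% lower. At 96 h 1 was called, Cry2, lower, where 4.03% of all genes were called, 1.01% higher and 3.02% lower. Groups of 4 did not overlap for 6 members at 24 h, 3 at 48 h and 1 at 96 h, where 34.4%, 15.8% and 11.6% of all genes did not overlap. The median log2 difference of the members was 0.32 at 24 h, 0.06 at 48 h and 0.05 at 96 h, beside 0.00, 0.00 and -0.01 over all tested genes. Their median absolute difference was 0.39, 0.18 and 0.14, beside 0.26, 0.16 and 0.11 over all tested genes. The DT effect was called as different among times for 5 members, Arntl, Per1, Cry1, Nr1d1 and Dbp, where 7.97% of all genes were called. For each of the 5 the DT effect was lower at 96 h than at 24 h. Of these calls at 24 h, that of Per3 was lost under most alternatives, that of Arntl without replicate 2 of saline (log2 difference 0.23), and that of Nr1d2 without DT replicate 1 or saline replicate 1 or 2. Without saline replicate 2 the count at 24 h was 5 members. Without DT replicate 1 the count at 48 h was 5, with Cry1 (0.28) and Nr1d2 (0.30) added. The 96 h call of Cry2 was lost when any of 6 of the 8 libraries of that time was left out, namely DT replicates 1, 2 and 4 and saline replicates 1, 3 and 4. Without DT replicate 4 Nr1d1 was called at 96 h (0.43). The count of 5 members among times was 3 without DT replicate 1 or saline replicate 2 or 4 at 24 h, or DT replicate 3 or 4 at 96 h.

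Whether the values have the form of a shift in clock time was looked at through the balance of the arms. For each library the mean log2 level, log2(CPM + 0.5), of Arntl and Clock was subtracted from that of Dbp, Nr1d1, Nr1d2 and Per3. At 24 h this difference ran from 0.22 to 0.43 in DT and from -0.41 to -0.12 in saline libraries. At 48 h it ran from 0.24 to 0.42 in DT and from -0.41 to -0.17 in saline libraries. At 96 h it ran from -0.41 to -0.27 in DT and from -0.55 to -0.31 in saline libraries. The groups were apart at 24 and 48 h and overlapped at 96 h. Without Nr1d1 the ranges at 24 h were -0.44 to -0.24 in DT and -0.58 to -0.23 in saline libraries, which overlap. Without Nr1d1 at 48 h they were -0.18 to -0.13 in DT and -0.67 to -0.40 in saline libraries, which do not overlap.

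The separation of the groups at 24 h thus rested on Nr1d1. Nr1d1 and Dbp were higher in DT libraries at 24 h while Arntl was also higher, Clock was level and Per3 was lower, so the genes within an arm differed among themselves. At 48 h Nr1d1 and Dbp were higher, Arntl and Clock overlapped between DT and saline, and Per3 overlapped too. At 96 h Arntl was lower without overlap (log2 difference -0.19), while Nr1d1 and Dbp overlapped. The labels give no hour of day, and each group was taken at 1 time after treatment. A shift in phase, a change in amplitude and a change in the mix of cells cannot be told apart in this design. These are not the only possible causes, and no cause was tested.

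**Figure D4:**
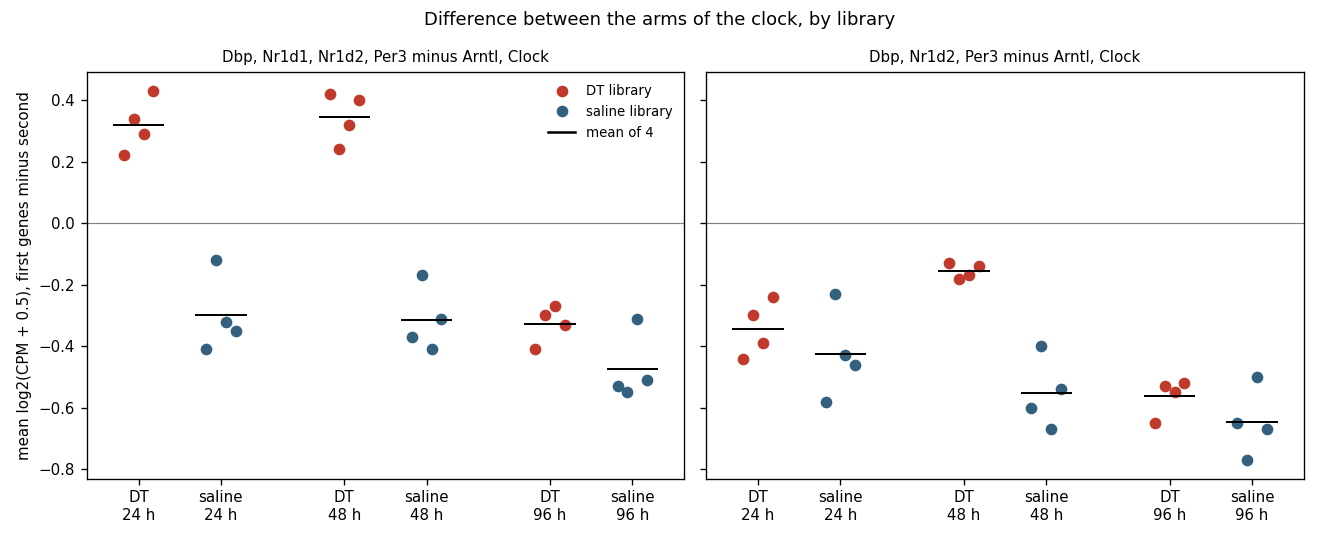
Mean log2(CPM + 0.5) of Dbp, Nr1d1, Nr1d2 and Per3 minus that of Arntl and Clock in each library, with and without Nr1d1, DT left of saline at each time. With Nr1d1 the DT libraries at 24 h lie at 0.22 to 0.43 and the saline libraries at -0.41 to -0.12, and without it the ranges overlap.

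Clock factors outside the 10 members were read from lists of partner and paralogue factors, of kinases, ligases and regulators, and of output genes. These lists, and that of glucocorticoid-induced genes below, were also chosen with earlier results of these data known. Their p-values and counts of calls are therefore a description and no independent test. Of 11 partner factors 9 were tested, all but Rorb and Hlf. At 24 h 1 rose and 4 fell (edgeR quasi-likelihood test, adjusted over all genes), where 38.7% of all genes were called, 19.9% higher and 18.9% lower. Nfil3, which binds D-boxes and represses there in opposition to Dbp, had 43.4, 41.1, 43.9 and 41.3 CPM in DT libraries, against 68.4, 69.1, 69.7 and 71.1 CPM in saline libraries. Its groups were far apart, and it fell by 0.71 ± 0.08 on the log2 scale (adjusted p = 4.14e-07). Rora, a receptor that activates Arntl through the element the REV-ERB receptors repress, had 11.5, 13.1, 10.7 and 13.2 CPM in DT libraries, against 20.5, 15.7, 21.0 and 18.8 CPM in saline libraries. The groups did not overlap, and Rora fell by 0.64 ± 0.16 (adjusted p = 0.00202). Arntl2, a paralogue of Arntl, fell by 0.31 ± 0.10 (adjusted p = 0.0134), and Bhlhe40, an E-box repressor, fell by 0.27 ± 0.09 (adjusted p = 0.0257). Ciart, a repressor of the Arntl and Clock pair, rose by 0.56 ± 0.20 (adjusted p = 0.0298), with 3.77 to 5.91 CPM in DT and 2.77 to 4.51 CPM in saline libraries. Nfil3 fell also at 48 and 96 h, with log2 differences of -0.37 and -0.44 (adjusted p = 0.00486 and 0.00212). It was the 1 partner factor called at 48 h, where 11.3% of all genes were called. At 96 h Bhlhe40 fell as well, by 0.42 (adjusted p = 0.00947).

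Of the 9 kinases, ligases and regulators, 1 rose and 4 fell at 24 h, where 19.9% of all genes were higher and 18.9% lower by the same call. Fbxl21, a ligase subunit that acts on Cry proteins, fell by 0.89 ± 0.13 on the log2 scale (edgeR quasi-likelihood test, adjusted p = 7.66e-06). Btrc, a ligase subunit for phosphorylated Per proteins, fell by 0.43 ± 0.09 (adjusted p = 0.000938). Gsk3b and Csnk1e, kinases that phosphorylate clock proteins, fell, with differences of -0.27 ± 0.10 and -0.17 ± 0.06 (adjusted p = 0.0349 and 0.0367). Cipc, a protein that binds Clock and inhibits it, rose by 0.33 ± 0.08 (adjusted p = 0.00172). At 48 h 1 of the 9 was called, Fbxl21, which fell by 0.39 (adjusted p = 0.0439), where 11.3% of all genes were called. At 96 h edgeR and DESeq2 called 0 of the 9, and 1 was lower at an unadjusted p under 0.05. There edgeR called 4.03% of all genes.

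Of 10 output genes, 3 rose and 4 fell at 24 h, again beside 19.9% and 18.9% of all genes. Pdk4, a mitochondrial kinase that restrains glucose oxidation, had 2.91, 2.85, 3.18 and 3.62 CPM in DT libraries, against 16.9, 21.2, 10.3 and 13.4 CPM in saline libraries. It was lower at all 3 times, with log2 differences of -2.29 ± 0.30, -1.53 ± 0.29 and -1.25 ± 0.29 (edgeR quasi-likelihood test, adjusted p = 3.08e-06, 0.00178 and 0.0164). Por, the electron donor of cytochrome P450 enzymes and in liver an output of the D-box factors, ran from 145 to 188 CPM in DT and from 240.0 to 266 CPM in saline libraries at 24 h. The log2 differences of Por were -0.59 ± 0.08, -0.38 and -0.47 at the 3 times, and it passed at each (adjusted p = 3.78e-06, 0.00349 and 0.000954). Wee1, a cell cycle kinase with E-boxes in its promoter, fell at 24 and 48 h, with log2 differences of -0.51 ± 0.09 and -0.39 (adjusted p = 0.000116 and 0.00854). Nampt and Klf10, which E-boxes drive in mouse liver, rose at 24 h by 0.22 ± 0.08 and 0.28 ± 0.07 (adjusted p = 0.023 and 0.00279). Over the 28 tested genes of these 3 lists the median log2 difference was -0.14 at 24 h, -0.05 at 48 h and -0.11 at 96 h, beside 0.00, 0.00 and -0.01 over all tested genes.

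Glucocorticoid hormone sets peripheral clocks and induces Per1, so other genes it induces were read beside Per1. Of the list of 7, 6 were tested, all but Zbtb16, and Per1 is among them. At 24 h 2 were higher, Per1 and Fkbp5, and 3 lower, beside 19.9% and 18.9% of all genes. Fkbp5 rose by 0.63 ± 0.16 on the log2 scale (edgeR quasi-likelihood test, adjusted p = 0.00344), while Dusp1, Tsc22d3 and Errfi1 fell, with differences of -0.64 ± 0.09, -0.48 ± 0.08 and -0.30 ± 0.09 (adjusted p = 6.38e-06, 4.42e-05 and 0.00707). Dusp1, a phosphatase of stress kinases, fell also at 48 and 96 h, with log2 differences of -0.41 and -0.51 (adjusted p = 0.0044 and 0.00153).

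Markers of other cells were read as summed CPM beside these results. The 6 fibroblast markers summed to 2827, 6398, 6479 and 4079 CPM in DT libraries at 24 h, against 3319 to 3892 CPM in saline libraries. Of the 6, Dcn and Pdgfra rose at 24 h (edgeR quasi-likelihood test, adjusted p = 0.0213 and 0.048), where 19.9% of all genes were called higher. Replicate 1 of DT at 24 h had the lowest fibroblast sum of all 8 libraries of that time. It had 261 CPM of Nr1d1, within the range of its group, and 20.3 CPM of Dbp, the lowest of its group. In saline libraries at 96 h, replicate 1 had the lowest fibroblast sum, 2676 CPM. That library also had the lowest Nr1d1 and Dbp of its group, 42.9 and 10.6 CPM. In DT libraries at 96 h, replicate 3 had the lowest fibroblast sum, 5249 CPM. Its Nr1d1 was the highest of its group, 77.0 CPM, and its Dbp was 14.2 CPM. Replicate 4 of saline at 24 h had the lowest sum, Nr1d1 and Dbp of its group. So did replicate 2 of DT at 48 h. Replicate 4 of saline at 48 h had the lowest sum of its group, 3532 CPM, but neither the lowest Nr1d1 nor the lowest Dbp. At 48 h the fibroblast sum was 6843 to 11208 CPM in DT and 3532 to 7182 CPM in saline libraries, and replicate 1 of DT, lowest of its group in 7 members, had the highest sum. The 4 endothelial markers summed to 261 to 299 CPM in DT and 187 to 279 CPM in saline libraries at 24 h. The 6 leukocyte markers summed to 34.9 to 86.1 CPM in DT and 52.7 to 77.4 CPM in saline libraries at 24 h, and Cd3e was at 0 in all 4 DT libraries at 96 h. The part of other cells in the clock gene differences was not tested.

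The saline libraries were compared among collection times, a comparison that the choice of members did not use. Markers of other cells also differed among these libraries, as given below, so time is not the only difference between them. Per1 had 84.7, 77.5, 84.0 and 78.2 CPM in saline libraries at 48 h, against 45.4, 46.3, 60.2 and 48.8 CPM in saline libraries at 24 h. It rose by 0.69 ± 0.11 on the log2 scale (edgeR quasi-likelihood test, adjusted p = 0.00117), higher in 4 of 4 libraries. At 96 h Per1 ran from 67.1 to 73.3 CPM in saline libraries and was 0.48 ± 0.11 above 24 h (adjusted p = 0.0178). That call was lost without saline replicate 1, 2 or 4 at 24 h or replicate 2 or 3 at 96 h (adjusted p from 0.0509 to 0.0773). Per1 was the 1 member called in each of these comparisons, where 0.355% of all genes were called at 48 h against 24 h and 3.22% at 96 h against 24 h. The saline libraries at 24 h thus held less Per1 than saline libraries at either later time, and the DT difference of Per1 at 24 h is taken against that level. In DT libraries Per1 ran from 59.9 to 83.7 CPM at 24 h, from 81.7 to 100 CPM at 48 h and from 53.0 to 74.6 CPM at 96 h.

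No other member was called among saline times in the fit of all libraries. Nr1d1 was 0.35 ± 0.11 higher on the log2 scale at 48 h than at 24 h in saline libraries, which did not pass the test in the fit of all libraries (edgeR quasi-likelihood test, adjusted p = 0.258) and did with only the libraries compared (adjusted p = 0.00572). Dbp was lower at 48 h than at 24 h without overlap, with a log2 difference of -0.27 ± 0.11 that did not pass (adjusted p = 0.398). It was also lower at 96 h than at 24 h, with a log2 difference of -0.35 ± 0.11 that did not pass (adjusted p = 0.0832). At 96 h against 48 h edgeR and DESeq2 called 0 members, 1 was lower at an unadjusted p under 0.05, and 0.0114% of all genes were called. Beyond the members, Bhlhe40 rose by 0.64 ± 0.09 at 48 h and by 0.57 ± 0.09 at 96 h against 24 h (adjusted p = 0.000509 and 0.00201), and Klf10 by 0.38 and 0.34 (adjusted p = 0.0073 and 0.0131). In the same saline comparison of 96 h with 24 h, 3.22% of all genes were called. There 4 of 4 endothelial markers rose, 2 of 4 tested leukocyte markers fell and 1 of 6 fibroblast markers, Dcn, rose (1.23 ± 0.32, adjusted p = 0.0407). The fibroblast median was 0.91, with 6 of 6 higher at an unadjusted p under 0.05. At 48 h against 24 h the fibroblast median was 0.78, and Dcn was 1.30 ± 0.32 higher (edgeR quasi-likelihood test, adjusted p = 0.103). edgeR called 0 of the 6 there, DESeq2 1, and 4 were higher at an unadjusted p under 0.05. Their part in the saline differences was not tested.

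Libraries of the same group also differed from each other, and 8 pairs of genes were set for comparison after each group's mean had been subtracted. Per1 and Per2 moved together (Pearson r = 0.75, permutation p = 0.00098, adjusted p = 0.00784; Spearman rho = 0.66, permutation p = 0.00408, adjusted p = 0.0163; 24 libraries). Without the 2 libraries farthest from the median of Per1, which were replicate 3 of DT at 24 h and at 96 h, r was 0.55, and it was 0.86 over the 12 DT and 0.43 over the 12 saline libraries. Dbp and Nr1d1 moved together (r = 0.60, permutation p = 0.00379, adjusted p = 0.0152; rho = 0.70, permutation p = 0.00241, adjusted p = 0.0163). Their r was 0.82 without the 2 libraries farthest in Dbp, 0.49 over the 12 DT and 0.84 over the 12 saline libraries.

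Arntl and Nr1d1, which belong to opposite arms, were also positively related within groups (r = 0.58, permutation p = 0.00976, adjusted p = 0.026; rho = 0.61, permutation p = 0.00666, adjusted p = 0.0178). Their r was 0.52 without the 2 libraries farthest in Arntl, 0.72 over the 12 DT and 0.44 over the 12 saline libraries. Arntl and Clock (r = 0.36, permutation p = 0.156, adjusted p = 0.312) did not pass, and neither did Arntl and Dbp (r = 0.05, permutation p = 0.823). Dbp with Per3 and with Nr1d2 gave r of -0.16 and -0.05 and did not pass. No negative relation was seen within groups in the pairs that cross the arms, Arntl with Nr1d1 and Arntl with Dbp. Libraries of a group share a time after treatment, and the labels give no hour of day. These pairs therefore cannot show whether the arms oppose each other over the day.

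**Figure D5:**
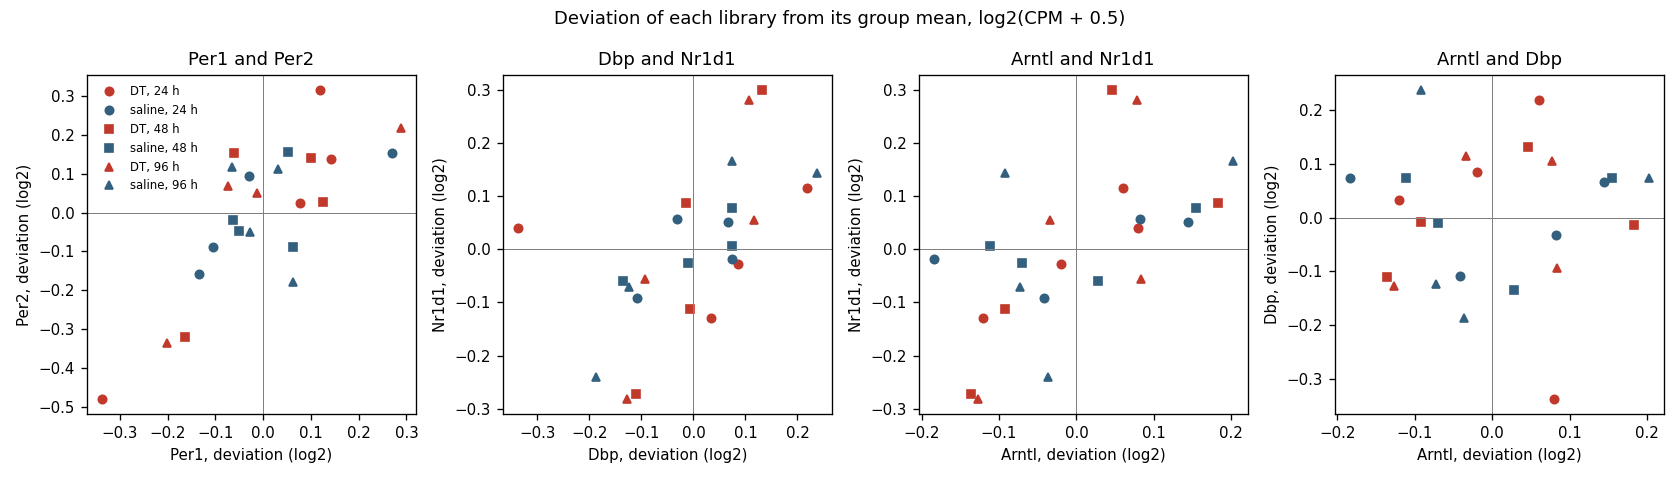
Log2(CPM + 0.5) minus the group mean for 4 pairs of clock genes, each point a library, with colour for DT or saline and shape for time. Per1 and Per2 (r = 0.75), Dbp and Nr1d1 (r = 0.60) and Arntl and Nr1d1 (r = 0.58) slope upwards, and Arntl and Dbp (r = 0.05) do not.

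The genes most like Dbp and Arntl were ranked by Pearson r of log2(CPM + 0.5) over the 24 libraries. The ranking was among 11556 tested genes with a symbol, averaging 5 CPM or more. Symbols starting with Gm and a digit, Mir, Snor or LOC, or ending in Rik, were left out. The points share libraries and groups, so these values are a description. The nearest to Dbp were Snhg15 (r = 0.93), Utp14a (0.927), Dnttip2 (0.925), Pnpla2 (0.924) and Slc23a3 (0.912), and no clock gene was among these 5. The nearest to Arntl were Zwint (0.776), Slc25a25 (0.752), Pik3cb (0.741), Ptpn2 (0.739) and Noct (0.728). Noct, which removes phosphate from NADP cofactors and cycles in mouse liver, is among the output genes. For Nr1d1, looked at after its values were seen, the nearest were Snhg15 (0.98), Ppp1r10 (0.971), Nop14 (0.968), Nop56 (0.957) and Wdr43 (0.955). Nop14, Nop56 and Wdr43 are known for ribosome assembly in the nucleolus. With group means subtracted, the nearest to Arntl were Rnd3 (0.854), Plk2 (0.824), Rnf19a (0.821), Prdm1 (0.793) and Tnfaip3 (0.786). The nearest to Dbp were Adra2a (0.702), Gpr35 (0.694), Pdzrn3 (0.693), C1qtnf3 (0.692) and Fmod (0.682). Those nearest to Nr1d1 were then Snx18 (0.757), Ccng2 (0.729), Lor (0.713), Slc25a25 (0.713) and Slc26a11 (0.701), and none of its 5 nearest before subtraction was among them.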

How the data were processed

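The authors deposited a table per library with a count and a normalized RPKM for each gene row. The deposited count holds uniquely aligned reads per gene model, as the file headers describe it, and was taken unchanged. Per the file headers the RPKM carries a size factor of the authors. It served to compare levels between genes and to recover those factors, over 11928 genes. GSNAP and GRCm38 are named in the submitters' processing notes, without versions, annotation or strand settings. Symbols for 85.0% of Entrez identifiers came from a RefSeq table of GRCm38.p6. Rows without a symbol held 1.29% to 1.52% of counts and were kept throughout.

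Counts were tested by the quasi-likelihood test of edgeR 4.0.16 in R 4.3.3 with robust dispersion, TMM scaling and filtering by expression within groups. The fit held all 24 libraries and 6 group means, leaving 18 residual degrees of freedom. P-values were two-sided and adjusted by Benjamini-Hochberg over 17468 genes, with a threshold of 0.05. Each SE was the absolute log2 difference divided by the root of the F statistic, and CPM were computed on TMM library sizes. Within-group correlations were tested by 100000 permutations within groups and adjusted over 8 pairs. Replicates differed by more than sampling noise (smallest chi-square per degree of freedom 4.23).

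Alternatives were median-of-ratios scaling, the authors' size factors, no filter on low counts, DESeq2 1.42.0, a replicate block, only the libraries compared and each library left out. Leaving out replicates 1 and 3 of DT at 48 h together was chosen after seeing the data. All 10 members and Thra were named in every comparison. Of each other list up to 5 genes with the smallest p were eligible, and those printed are a part of them. The members and lists were chosen with earlier results of these data known. With no counts of single molecules, precision covers the spread between libraries only.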

Additional observations from a re-analysis of the deposited data

Results flagged for a closer look

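In 72 groups of 4 libraries examined for a single library far from the others, chance flags about 1 in 20. Clock had 58.7 CPM in replicate 1 of DT at 48 h, against 95.6 to 102 CPM in the other 3. Per1 had 59.9 CPM in replicate 3 of DT at 24 h, against 80.1 to 83.7 CPM in the other 3. Cry2 had 44.3 CPM and Thra 49.8 CPM in replicate 3 of DT at 96 h, against 33.9 to 34.9 CPM and 45.4 to 46.0 CPM in the other 3.

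The DT effect differed among times by a test of the difference itself (edgeR quasi-likelihood F test). As the effect at 96 h minus that at 24 h on the log2 scale, Nr1d1 had -2.06, Per1 -0.80, Dbp -0.64, Cry1 -0.54 and Arntl -0.50. These 5 members were proposed with these differences known. The count of 5 members became 3 without DT replicate 1, saline replicate 2 or saline replicate 4 at 24 h, or DT replicate 3 or 4 at 96 h. Outside the members the same quantity was -1.05 for Ciart, -0.44 for Cipc, -0.40 for Klf10 and -0.33 for Nampt. None of these 4 was called without saline replicate 1, 2 or 4 at 24 h, DT replicate 3 or saline replicate 4 at 48 h, or DT replicate 4 at 96 h.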

How the results depend on the processing

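Median-of-ratios scaling and the authors' size factors moved no count of called genes by over 1.5 times. With only the libraries compared, the DT effect at 48 h was called for 945 genes and 2 other clock genes, against 1979 and 5 in the fit of all libraries. At 96 h 0 members were called in place of 1 (DESeq2 called 1, Cry2). Saline at 48 h against 24 h gave 285 genes and 2 members with only the libraries compared and 159 genes with DESeq2, against 62 and 1. Saline at 96 h against 24 h gave 959 genes with DESeq2, 321 without a filter and 322 with only the libraries compared, against 563. Saline at 96 h against 48 h gave 4 genes with DESeq2 and 1 each without a filter, with only the libraries compared and with the replicate block, against 2. The causes were not tested.

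Replicate numbers were not used to pair the samples in the main fit. Correlations of same-numbered deviations ran from -0.42 to 0.14, which shows no pairing but cannot exclude one. The replicate block called 7 members at 24 h, without Per3, and 3 and 1 at 48 and 96 h. For the DT effect among times it called 2 other clock genes in place of 4.

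Leaving out each library in turn gave 5961 to 6729 genes at 24 h, 1154 to 2741 at 48 h and 359 to 680 at 96 h. Members called were 5 to 7 at 24 h, with 5 without saline replicate 2. They were 3 to 5 at 48 h, with 5 without DT replicate 1, where Cry1 (log2 difference 0.28) and Nr1d2 (0.30) were added, and 0 to 1 at 96 h. Without DT replicate 4 at 96 h Nr1d1 was called, at 0.43. Other clock genes called were 11 to 15 at 24 h, 4 to 5 at 48 h and 3 to 4 at 96 h. Among times the ranges were 840 to 2070 genes, 3 to 5 members and 0 to 5 other clock genes. Saline at 48 h against 24 h gave 38 to 87 genes, 1 member and 1 to 2 other clock genes. Saline at 96 h against 24 h gave 91 to 1218 genes, 0 to 1 members and 1 to 2 other clock genes, and at 96 h against 48 h 0 to 2 genes. Leaving out replicates 1 and 3 of DT at 48 h together gave 1640 genes and 3 members at 48 h. For the members and Thra, 473 log2 differences of DT against saline were computed under alternatives. Of these, 21 lost a call (Per3 in 10, Cry2 in 7, Nr1d2 in 3 and Arntl in 1), 3 gained one (Cry1, Nr1d2 and Nr1d1) and 9 changed sign, none of them with a call. Of 462 such values among saline times, 5 lost a call (Per1 at 96 h against 24 h), 1 gained one (Nr1d1 at 48 h against 24 h) and 12 changed sign, none of them with a call.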
